A study of Homo sapiens with 4 samples.

Results

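The genes described here are WDR1, the cofilin cofactor of actin filament disassembly, and 9 genes that act beside it in actin turnover. They are the cofilin genes CFL1 and CFL2, the actin depolymerizing factor gene DSTN, the cofilin regulators SSH3 and LIMK2, the coronin genes CORO1B and CORO1C, and the monomer-binding genes CAP1 and PFN1. The 10 genes were taken by symbol through their Ensembl identifiers, from 60658 identifiers in each library's table. WDR1 was chosen because it rose in both cell lines, so its values below are a description of that choice. The other 9 genes were chosen by function, with earlier results of these data known. All 10 passed the filter used here, an FPKM that averages at least 1 across the 4 libraries.

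The study compared cells given a small interfering RNA (siRNA) against TMEM161A, a gene for a transmembrane protein, with cells given a negative control siRNA. An siRNA is a short RNA duplex that leads to the cleavage of an mRNA with the matching sequence. Both HT29 and LIM1215 are cell lines grown from human colorectal cancers, and each gave 1 control and 1 knockdown library of poly(A)-selected RNA. The titles mark both knockdown libraries si2, and the siRNA sequences are not given in the sources used here. Each group thus had 1 library, so no value carries an error between cultures and no comparison has a test. In bulk RNA, fewer cells of a type and less RNA per cell cannot be told apart.

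Levels are FPKM, fragments counted per unit of gene length and library depth, a scale on which genes of different length can be compared. TMEM161A fell to 10.9% of control in HT29, from an FPKM of 42.6 to 4.64, and to 19.4% in LIM1215, from 39.1 to 7.61. The estimated depth behind one FPKM was 18.1 to 21.5 fragments for each kilobase of gene. Mitochondrial genes held 13.9% to 16.4% of the summed FPKM. Of 7 intestinal epithelial markers, all 7 had an FPKM of at least 1 in both LIM1215 libraries, and 5 in both libraries labelled HT29. In the latter, the differentiation markers KRT20 (0.306 and 0.815) and LGALS4 (0.607 and 0.417) stayed under 1, and the brush border gene VIL1 was at 0.0397 and 0. HT29 cells are usually described as expressing these genes, the identity of the line was not tested, and HT29 below means the libraries so labelled. The leukocyte markers PTPRC and CD3E were at 0 in all 4 libraries. The summed FPKM of 8 leukocyte, endothelial and fibroblast markers lay between 23.9 and 81.6, most of it from CD68 and COL1A1, and their part in the results was not tested.

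Actin filaments grow at one end and are taken apart at the other. Proteins of the cofilin and actin depolymerizing factor (ADF) family bind ageing filaments and sever them, WDR1 joins cofilin on the filament and speeds disassembly, and coronins help load cofilin and act on branched networks. LIM kinases switch cofilin off by phosphorylation and slingshot phosphatases switch it on again. Cyclase-associated protein and profilin recharge the released monomers and return them to growing ends. In intestinal epithelial cells this cycle serves the microvilli, the cell junctions and cell migration.

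WDR1 (ENSG00000071127) is on chromosome 4 (10068089 to 10116972, minus strand, GRCh38 with GENCODE release 44). It had an FPKM of 96.4 in HT29 cells with the control siRNA and of 276.5 in those with the TMEM161A siRNA. In LIM1215 these values were 125.5 and 329.4. Both knockdown libraries lay above both controls. With the TMEM161A siRNA it reached 286.9% of control in HT29, with a 95% counting interval of 278.5% to 295.8%, and 262.4% in LIM1215, with an interval of 255.1% to 270.1%. Counting intervals here use the exact Clopper-Pearson method on estimated fragments, 5709 and 16620 for WDR1 in HT29 and 6343 and 18650 in LIM1215. They cover counting error only. The log2 ratio of FPKM plus 1, the measure used for all genes, was 1.51 in HT29 and 1.38 in LIM1215.

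**Figure D1:**
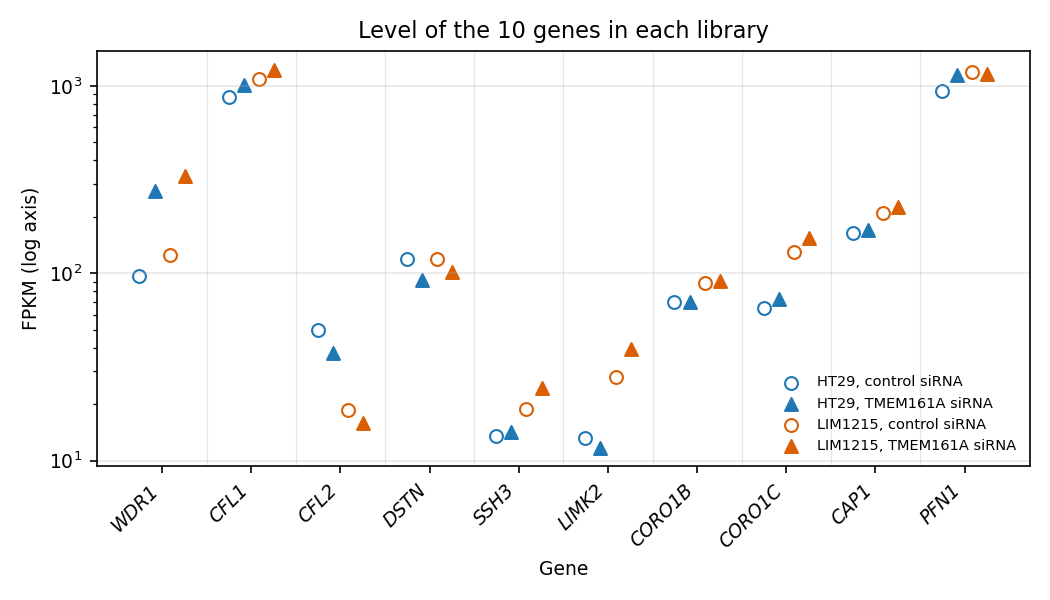
FPKM (vertical log axis) of each of the 10 genes (horizontal axis) in the 4 libraries. Open circles are control and filled triangles knockdown libraries, blue for HT29 and orange for LIM1215. The triangles of WDR1, at 276.5 and 329.4, stand clear of its circles at 96.4 and 125.5.

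WDR1 was the one gene of the 10 past a 2-fold difference in either line, that is, a log2 ratio of 1 or more in size. Of all 14803 genes with a mean FPKM of at least 1, 3.80% passed this threshold in HT29 and 3.46% in LIM1215, in either direction. A rise past 2-fold in both lines was seen in 41 genes, or 0.277%. By size of rise WDR1 stood 92nd of all 14803 genes in HT29 and 110th in LIM1215, and 12th and 17th of the 12295 protein-coding genes. Among the 1175 genes with a mean FPKM of at least 100 it stood 2nd in each line. Of those abundant genes 10 rose past 2-fold in HT29 and 5 in LIM1215, WDR1 included. The mean takes in the knockdown libraries, and WDR1 was at an FPKM of 96.4 in the HT29 control. Since WDR1 was chosen for its rise, its places in these orders describe that choice and are no support for it.

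**Figure D2:**
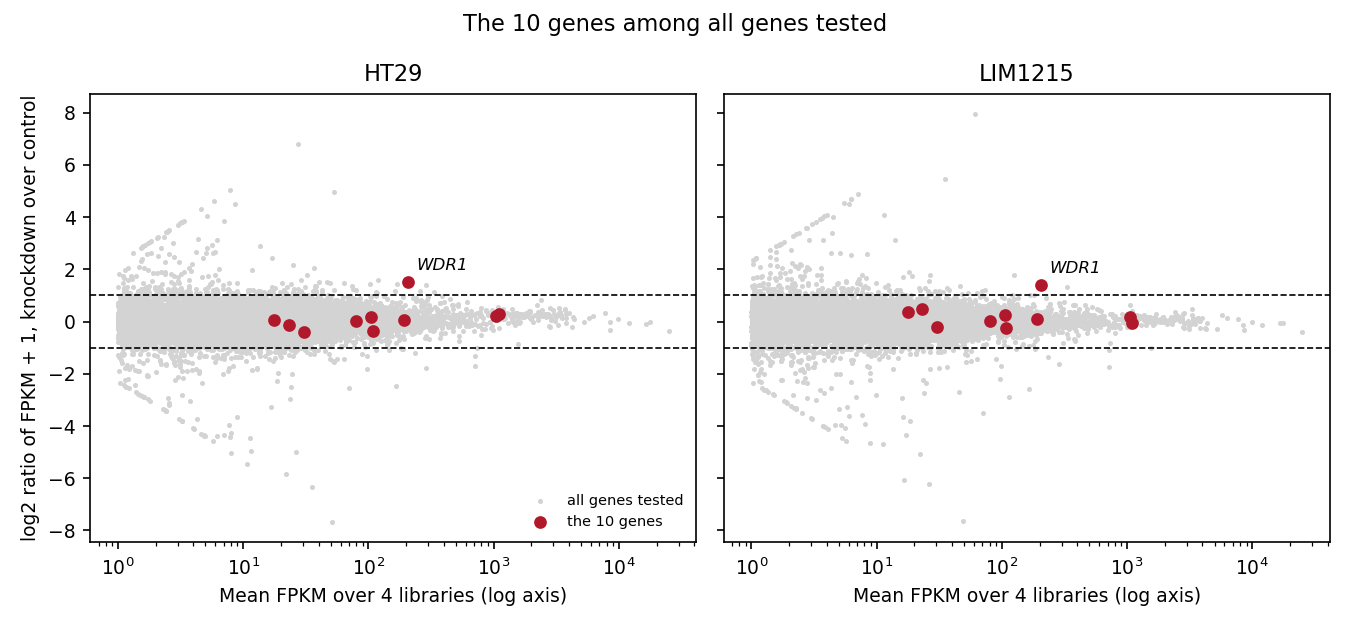
Log2 ratio of FPKM plus 1, knockdown over control (vertical axis), against mean FPKM over the 4 libraries (horizontal log axis), in HT29 (left) and LIM1215 (right). Grey points are all 14803 genes tested, red points are the 10 genes, and dashed lines mark 2-fold. WDR1, at 1.51 and 1.38, is the red point above the upper line, at a mean FPKM where few grey points reach it.

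The other 9 genes stayed within log2 ratios of −0.40 to 0.28 in HT29 and of −0.23 to 0.48 in LIM1215. In each line 6 of the 9 lay above control and 3 below. Of all genes tested, 53.87% lay above control in HT29 and 53.1% in LIM1215. With libraries scaled to a common FPKM sum, 3 of the 9 lay above in HT29, against 46.38% of all genes. After centring, 5 of the 9 lay above in each line. The median over all 10 genes was 0.06 in HT29 and 0.14 in LIM1215, against 0.04 and 0.02 over all genes tested. At a lower threshold of 1.5-fold, which 14.8% of all genes passed in HT29 and 12.8% in LIM1215, WDR1 was still the one member called in either line.

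**Figure D3:**
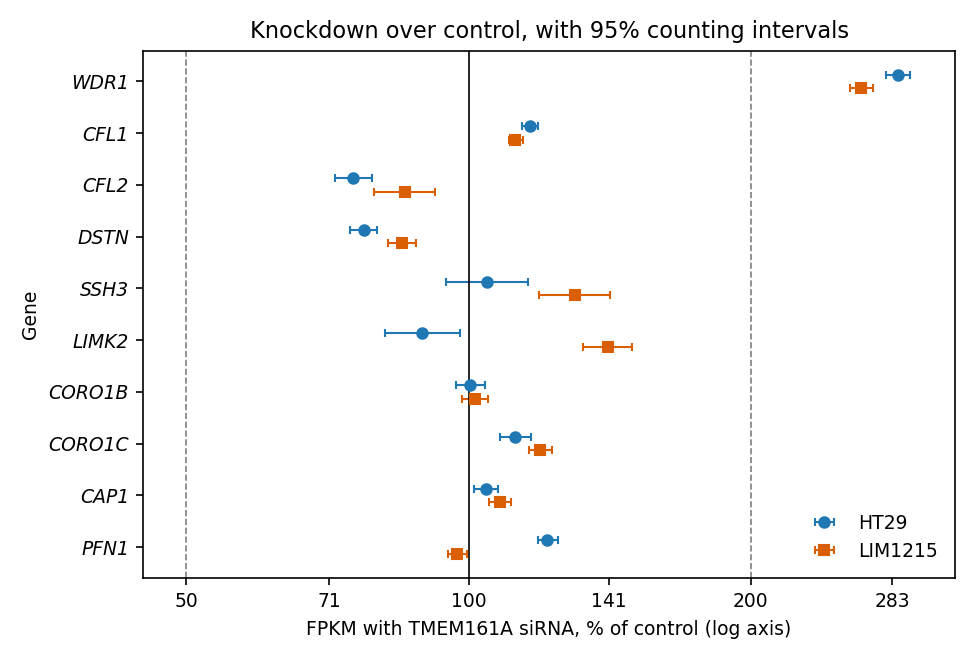
Knockdown level as a percentage of control (horizontal log axis) for the 10 genes (vertical axis), with 95% counting intervals as bars, in HT29 (blue circles) and LIM1215 (orange squares). Dashed lines mark 50% and 200%. WDR1, at 286.9% and 262.4%, lies beyond 200%, and the other 9 genes lie between 75.3% and 140.7%.

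The cofilins and ADF are the filament-severing proteins that WDR1 assists, and their 3 genes differed in direction. CFL1 (chromosome 11, 65823022 to 65862026, minus strand) encodes the non-muscle cofilin. The HT29 libraries had an FPKM of 869.1 with the control siRNA and 1010 with the TMEM161A siRNA, and the LIM1215 libraries 1088 and 1221. That is 116.2% of control in HT29 (interval 114.1% to 118.6%) and 112.2% in LIM1215 (110.3% to 114.4%). Both values lie far short of the change of WDR1.

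DSTN (chromosome 20, 17570075 to 17609919, plus strand), which encodes ADF, had an FPKM of 119.6 in control and 92.4 in knockdown cells of HT29. In LIM1215 the values were 119.5 and 101.5. It reached 77.2% of control in HT29 (interval 74.8% to 79.9%) and 84.9% in LIM1215 (82.1% to 87.8%). The 2 controls were thus close to each other, and both knockdown libraries were lower.

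CFL2 (chromosome 14, 34709113 to 34714823, minus strand), the muscle-type cofilin, was at 49.8 FPKM in control and 37.5 in knockdown cells of HT29 and at 18.6 and 15.9 in LIM1215. That is 75.3% of control (interval 72.0% to 78.8%) and 85.4% (79.2% to 92.2%). CFL2 was the member with the lowest log2 ratio in HT29, −0.40, at percentile 12.8 of all genes tested. In LIM1215 its log2 ratio of −0.21 stood at percentile 22.9, and DSTN at −0.23 was lower, at percentile 21.4. For both genes the direction was the same in the 2 lines, and neither reached 1.5-fold.

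The summed FPKM of CFL1, CFL2 and DSTN was 1039 in control and 1140 in knockdown cells of HT29, and 1226 and 1338 in LIM1215. Within the sum, CFL1 held 83.7% in control and 88.6% in knockdown cells of HT29, and 88.7% and 91.2% in LIM1215. The share of DSTN was 11.5% and 8.11% in HT29, and 9.75% and 7.58% in LIM1215. The share of CFL2 was 4.80% and 3.29% in HT29, and 1.52% and 1.19% in LIM1215.

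WDR1 was also set against this sum, a ratio within a library that does not depend on how libraries are scaled. WDR1 stood at 9.28% of the cofilin and ADF sum in the HT29 control and at 24.2% in the HT29 knockdown library. In LIM1215 it stood at 10.2% and 24.6%. The ratio was thus similar in the 2 controls and similar in the 2 knockdown libraries, and it was 2.61-fold higher with the TMEM161A siRNA in HT29 and 2.40-fold higher in LIM1215. Against the summed FPKM of the actin genes ACTB and ACTG1, WDR1 was at 1.36% and 3.35% in HT29 and at 1.28% and 3.16% in LIM1215. The cofilin and ADF sum stayed between 12.5% and 14.7% of the actin sum in all 4 libraries.

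**Figure D4:**
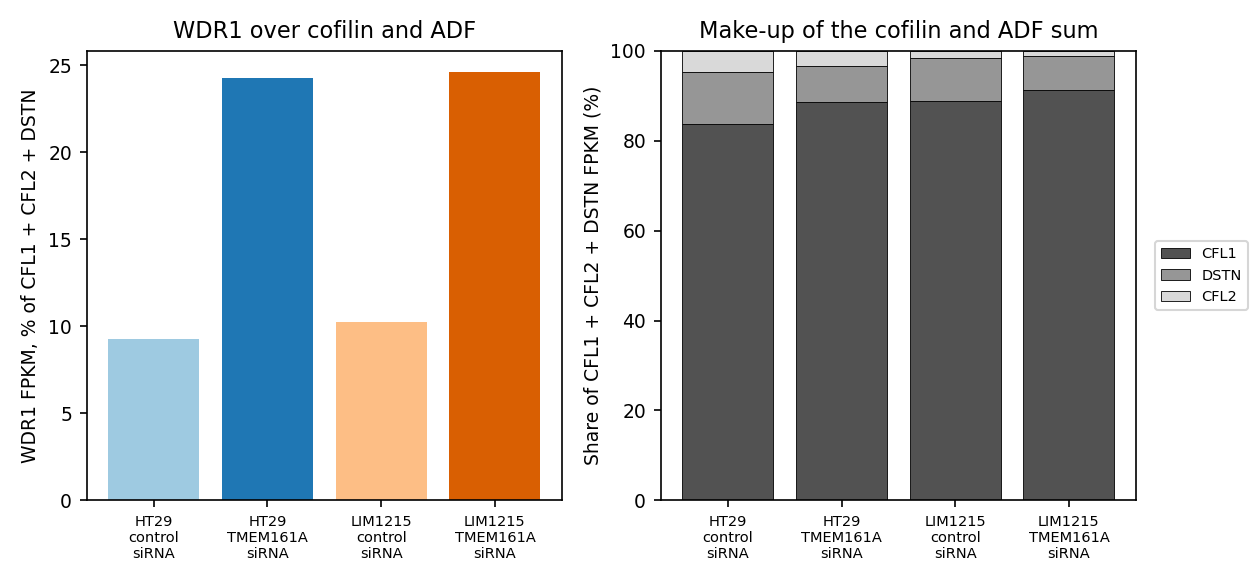
Left, WDR1 FPKM as a percentage of the summed FPKM of CFL1, CFL2 and DSTN in the 4 libraries (vertical axis from 0). Right, the share of each of the 3 genes in that sum (%). The bars of WDR1 stand at 9.28% and 10.2% in the controls and at 24.2% and 24.6% in the knockdown libraries, while the sum itself is mostly CFL1 throughout.

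The 2 members that set cofilin phosphorylation had FPKM levels below those of CFL1 and DSTN in every library, and in LIM1215 above that of CFL2. SSH3 (chromosome 11, 67303478 to 67312607, plus strand), a slingshot phosphatase, had an FPKM of 13.6 in control and 14.2 in knockdown cells of HT29. In LIM1215 it was 18.8 and 24.4, or 129.7% of control (interval 118.9% to 141.5%). The HT29 interval, 94.6% to 115.8%, included no change, and the HT29 log2 ratio of 0.06 changed sign with a common FPKM sum.

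LIMK2 (chromosome 22, 31212239 to 31280080, plus strand), a LIM kinase, went opposite ways in the lines. It stood at 13.2 FPKM in control and 11.8 in knockdown cells of HT29, or 89.2% of control (interval 81.3% to 97.8%). In LIM1215 it was 28.1 and 39.6, or 140.7% (132.5% to 149.5%). The log2 ratios of −0.15 and 0.48 stood at percentiles 29.0 and 89.9 of all genes, and neither reached 1.5-fold. The difference between the lines was not tested.

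Of the other 12 genes in a list of cofilin kinases, phosphatases and their upstream regulators, none passed 2-fold in either line. This threshold was passed by 3.80% of all genes in HT29 and 3.46% in LIM1215. The list median was 0.17 in HT29 and 0.07 in LIM1215. The other LIM kinase gene, LIMK1, had log2 ratios of 0.30 and 0.26, and the other slingshot genes, SSH1 and SSH2, had 0.29 and 0.14 and 0.27 and 0.23. PAK4, a kinase that activates LIM kinases, had the largest shared rise of the list, 0.42 and 0.27. PDXP, a phosphatase also called chronophin that dephosphorylates cofilin, had the largest shared fall. Its FPKM was 27.3 and 17.7 in HT29 (−0.60) and 27.0 and 21.3 in LIM1215 (−0.33), so it passed 1.5-fold in HT29. The summed FPKM of the slingshot genes over that of the LIM kinase genes was 1.89 and 1.999 in HT29 and 1.26 and 1.12 in LIM1215, control and knockdown.

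The coronins load cofilin on filaments and act on Arp2/3 branches. CORO1B (chromosome 11, 67435510 to 67443821, minus strand) had the log2 ratios nearest to 0 of the 10 genes, 0.01 in HT29 and 0.02 in LIM1215, and both changed sign after centring. It stood at 70.2 FPKM in control and 70.5 in knockdown cells of HT29 and 89.2 and 90.6 in LIM1215, and both counting intervals included no change. CORO1C (chromosome 12, 108645109 to 108731526, minus strand) was at 65.2 and 73.1 in HT29, or 112.1% of control (interval 107.9% to 116.5%). In LIM1215 it was at 129.2 and 154.2, or 119.3% (116.1% to 122.8%).

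Of 5 further coronin genes, 4 passed the filter. Their FPKM reached at most 7.45 in HT29 and 26.5 in LIM1215. On FPKM plus 1, none of the 4 passed 2-fold, against 3.80% of all genes in HT29 and 3.46% in LIM1215. CORO6 had the largest shared fall, with an FPKM of 5.32 and 3.85 in HT29 and of 2.79 and 1.60 in LIM1215. Of these 4, none was higher in both lines. CORO1A, the leukocyte coronin, is named because of its values. Its FPKM was 4.63 and 2.22 in HT29 and 17.0 and 26.5 in LIM1215, log2 ratios of −0.81 and 0.61.

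CAP1 (chromosome 1, 40040233 to 40072649, plus strand) encodes cyclase-associated protein, which helps cofilin at filament ends and recharges actin monomers. Its FPKM was 163.4 and 170.7 in HT29, or 104.4% of control (interval 101.4% to 107.6%), and 208.5 and 225.2 in LIM1215, or 108.0% (105.1% to 111.1%), and its HT29 log2 ratio of 0.06 changed sign with a common FPKM sum. PFN1 (chromosome 17, 4945652 to 4949061, minus strand) encodes profilin, which delivers monomers to growing ends, and had the highest mean level of the 10 genes. It was at 940.1 and 1140 in HT29, or 121.3% of control (118.6% to 124.5%). In LIM1215 it was at 1187 and 1153, or 97.1% (95.01% to 99.7%). PFN1 was thus higher in the knockdown library of one line and lower in that of the other.

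Of 9 further monomer-binding genes, none passed 1.5-fold in either line, against 14.8% of all genes in HT29 and 12.8% in LIM1215. The list medians were 0.19 in HT29 and −0.03 in LIM1215. TMSB10, a thymosin that holds monomers in reserve, had the largest shared rise, with an FPKM of 2803 and 3956 in HT29 (0.50) and of 3853 and 4218 in LIM1215 (0.13). TWF1, the monomer-binding protein twinfilin, had the largest shared fall, with −0.31 and −0.27.

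The place of WDR1 in the order of levels differed between control and knockdown libraries. In both controls PFN1, CFL1 and CAP1 were the 3 most abundant of the 10 genes and WDR1 was the 5th. In both knockdown libraries WDR1 was the 3rd, above CAP1. SSH3 was the 9th in all 4 libraries. In HT29, CORO1B was above CORO1C in the control and below it in the knockdown library. PFN1 was above CFL1 in 3 libraries and below it in the LIM1215 knockdown library. Close neighbours, such as CORO1C at 129.2 and WDR1 at 125.5 in the LIM1215 control, had no replicates against which to set their difference.

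Between the controls, 2 of the 10 genes differed past 2-fold, against 19.4% of all genes tested. CFL2 was lower in LIM1215, at 37.4% of the HT29 level (log2 ratio −1.37), and LIMK2 was higher, at 213.2% (1.04). CORO1C was just short of the threshold at 198.1% (0.98). The call of LIMK2 did not hold under 4 alternatives, where its log2 ratio lay between 0.86 and 0.99, whereas CFL2 kept its call. WDR1 was at 130.2%, close to CFL1 (125.2%), PFN1 (126.2%), CORO1B (127.0%) and CAP1 (127.6%), and DSTN at 99.9%.

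The wider actin machinery was set beside the 10 genes through 7 lists with 93 genes, of which 89 passed the filter. On FPKM plus 1, none of the 89 passed 2-fold in HT29 or in LIM1215, against 3.80% and 3.46% of all genes. At 1.5-fold, 12 of them (13.48%) were called in HT29, against 14.8% of all genes, and 5 (5.62%) in LIM1215, against 12.8%. TAGLN was called higher and DIAPH3 lower in both lines at this threshold. The median over the 89 genes was 0.14 in HT29 and 0.06 in LIM1215. With a pseudocount of 0.1 in place of 1, 3 genes passed 2-fold in HT29 (TAGLN, EGR3 and, downward, CORO1A) and 1 in LIM1215 (TAGLN).

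**Figure D5:**
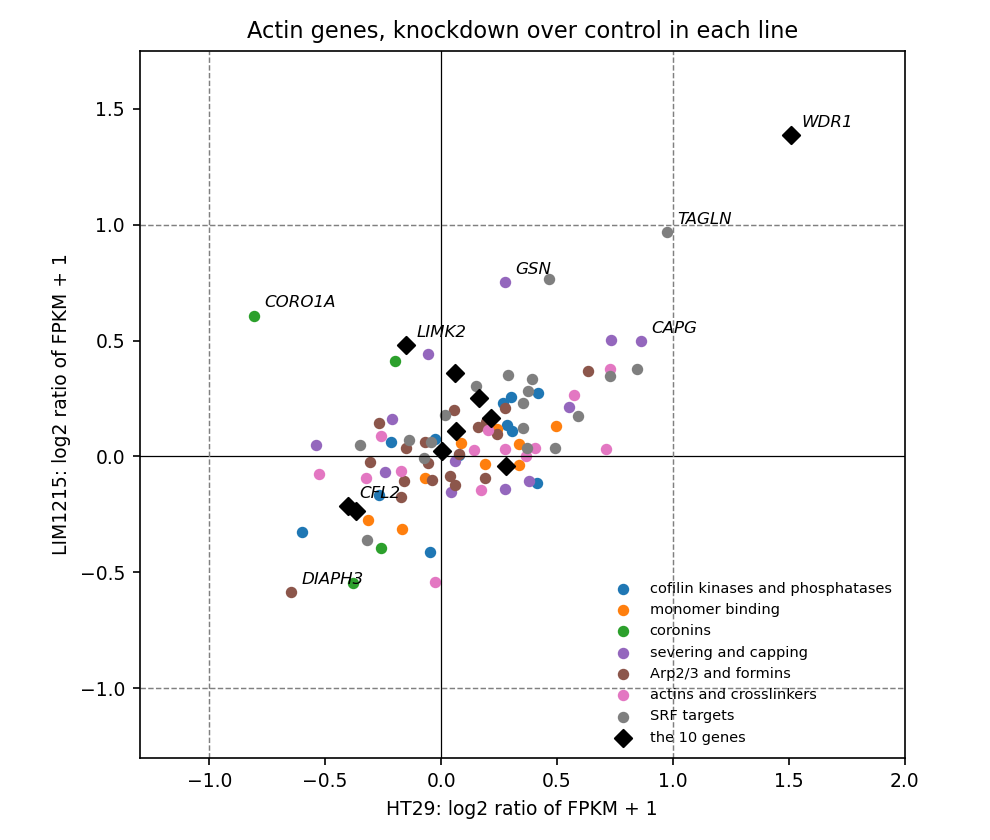
Log2 ratio of FPKM plus 1, knockdown over control, in HT29 (horizontal axis) and LIM1215 (vertical axis), for the 10 genes (black diamonds) and the 89 other actin genes coloured by list. Dashed lines mark 2-fold. WDR1 at 1.51 and 1.38 lies outside the dashed lines in both directions, and TAGLN at 0.98 and 0.97 lies just inside them.

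Severing and capping genes had medians of 0.17 in HT29 and 0.11 in LIM1215 over the 12 of 14 that passed the filter. The HT29 median was 0.05 without a filter and 0.27 with a mean FPKM of at least 5, and the 12 include VIL1, which passed through its LIM1215 level alone. CAPZA1, a subunit of the capping protein that closes filament ends, had the largest shared rise, with an FPKM of 83.5 and 139.3 in HT29 (0.73) and of 89.9 and 127.8 in LIM1215 (0.50). CAPG, a capping protein of the gelsolin family named because of its values, had 0.86 and 0.498. AVIL had the largest shared fall, with −0.24 and −0.07 at an FPKM of 1.34 to 2.23.

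The 19 genes of the Arp2/3 complex, its activators and the formins, which start new filaments, had medians of 0.04 and 0.01, whose sign changed under other scalings. ARPC3, an Arp2/3 subunit, was at 138.8 and 215.6 in HT29 (0.63) and at 186.3 and 240.8 in LIM1215 (0.37). DIAPH3, a formin, was at 8.50 and 5.07 in HT29 (−0.65) and at 7.59 and 4.73 in LIM1215 (−0.59). Among 14 actins, crosslinkers and tropomyosins, with medians of 0.19 and 0.03, FSCN1, the bundling protein fascin, had the largest shared rise (0.73 and 0.38). PLS1, a bundling protein of microvilli, had the largest shared fall (−0.32 and −0.09).

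Serum response factor (SRF) is a transcription factor that drives many actin genes when free actin monomer is scarce. The list used here mixes cytoskeletal targets with growth targets such as EGR1 and EGR3, and free monomer was not measured. Of 19 targets in the list that passed the filter, 14 were higher in the knockdown library of HT29 and 17 in that of LIM1215, while 53.87% and 53.1% of all genes were. The medians were 0.35 and 0.18, against 0.04 and 0.02 over all genes. TAGLN, the actin-binding protein transgelin, came closest to WDR1 in both lines, with an FPKM of 3.93 and 8.68 in HT29 (0.98) and of 13.01 and 26.4 in LIM1215 (0.97). TAGLN2 had the largest shared fall, −0.32 and −0.36. The lists were written with earlier results of these data known.

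Because SRF binds a 10-base element, the CArG box, promoter windows from RefSeq (GRCh38.p14) were searched for it. The windows run from 250 bases before to 50 after an annotated start site, 16 of them for the 10 genes. None of the 16 held a full CArG box, which 1.29% of all 35116 windows held. The WDR1 window held a CArG-like box, which allows the other pyrimidine at the second and the other purine at the ninth letter. This was 1 of the 16 windows (6.25%), near the share of 6.18% among all windows. The element reads the same way on both strands, so both were covered. The sequences are shown to set the WDR1 box against full boxes of 3 genes of the SRF and actin lists, picked after the comparison as near to it in letters, 5′ to 3′ on the strand of each gene, with the box in capitals.
WDR1: gcgcttgaCTATATATGGtcaaagct
ACTG1: aaagatcgCCATATATGGacatgttc
EGR1: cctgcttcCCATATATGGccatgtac
SRF: ggggctcaCCATATAAGGagcggcct

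The WDR1 stretch lies at chr4:10116906-10116931 on the minus strand. Its box is at −124 to −115 from the RefSeq start site and inside the longer GENCODE span of the gene. The ACTG1 stretch lies at chr17:81512876-81512901 (minus strand), the EGR1 stretch at chr5:138465388-138465413 (plus strand) and the SRF stretch at chr6:43171231-43171256 (plus strand). Counted from 1 at the 5′ end of the box, the WDR1 box differs from those of ACTG1 and EGR1 by C2T, and from that of SRF by C2T and A8T. Other full boxes of these lists, further ones of EGR1 and SRF among them, differ from it at 2 to 4 letters. Windows were at hand for 16 of the 20 genes in the SRF target list and 11 of the 14 in the actin list. Of the genes with windows, 9 held a full box. Their log2 ratios lay between −0.35 and 0.71 in HT29 and between 0.00 and 0.28 in LIM1215. None of these 9 genes passed 2-fold in either line, a threshold that 3.80% of all genes passed in HT29 and 3.46% in LIM1215. A CArG-like box without a full one was held by ACTN4 (0.41 and 0.04) and LCP1 (−0.17 and −0.06). LCP1 was at an FPKM of 0.301 and 0.155 in HT29. Whether SRF acts on WDR1 here was not tested. ACTG1, a cytoplasmic actin, had 0.20 and 0.12, EGR1, an immediate early transcription factor, 0.38 and 0.28, and SRF itself 0.35 and 0.12. A match is a description of these letters and not a bound site.

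Genes near WDR1 on chromosome 4 were compared next. Within 500 kb, 4 other genes had a mean FPKM of at least 1. SLC2A9, a urate transporter 13153 bases away, was at an FPKM of 1.67 and 2.62 in HT29 and of 2.54 and 1.08 in LIM1215, opposite directions at low levels. ZNF518B, 322908 bases away, had log2 ratios of 0.37 and 0.28. The pseudogene ENPP7P11 had 0.14 and 0.66, on an estimated 3.99 to 19.98 fragments a library. RNA5SP155, a pseudogene shorter than a fragment inside WDR1, was listed at 0 in 3 libraries and at 9.07 in the LIM1215 control. On FPKM plus 1, none of the 4 passed 2-fold upward in either line, and RNA5SP155 passed it downward in LIM1215 (−3.33). Without the pseudocount, ENPP7P11 was at 268.2% of control in LIM1215 (interval 81.2% to 1140%). SLC2A9 was at 42.65% there (28.5% to 65.2%). Of the 10 genes, CFL1, SSH3 and CORO1B share chromosome 11, and SSH3 and CORO1B are 122903 bases apart.

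The 5 protein-coding genes whose pattern over the 4 libraries was most like that of WDR1 were sought by Euclidean distance between log2 values centred on each gene's mean. They were CDKN1A (distance 0.30), SEMA3C (0.37), PTPMT1 (0.40), NEDD8-MDP1 (0.41) and RFK (0.42). CDKN1A, an inhibitor of cyclin-dependent kinases, had log2 ratios of 1.12 and 1.33, and SEMA3C, a secreted semaphorin, 1.14 and 1.02. PTPMT1 had 2.06 in HT29 and 1.27 in LIM1215, and RFK, riboflavin kinase, had 1.02 and 1.27. NEDD8-MDP1 rested on an estimated 4.10 to 25.9 fragments a library. Of the other 9 members, CFL1 was nearest to WDR1, at a distance of 1.26, and CFL2 was farthest, at 2.38. Counting WDR1 itself, 1717 protein-coding genes were closer than CFL1.

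Several members have annotated copies or overlapping genes, whose fragments the authors' counting may have shared. CFL1 overlaps MUS81 and SNX32, and PFN1 overlaps ENO3, on the opposite strand, and CORO1B overlaps PTPRCAP on its own strand. Pseudogene copies named for CFL1 (8) and PFN1 (10) summed to at most 0.443% and 0.780% of their parent's FPKM, and those of DSTN (5) to at most 6.90%. CFL1P1, on chromosome 10, was at 1.19 and 3.13 in HT29 (0.92) and at 1.34 and 3.96 in LIM1215 (1.09), on an estimated 5.03 to 16.8 fragments. DSTNP2 had log2 ratios of −0.05 and −0.10. WDR1 had no copy of this kind in the annotation.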

How the data were processed

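The 4 tables deposited by the authors hold 1 FPKM value per Ensembl gene, per the file headers. HISAT2 2.1.0, SAMtools 1.20, Cuffdiff and Cufflinks 2.2.1 and the build GRCh38 are named in the submitters' processing notes. The annotation, the strand setting and the filters are not given in the sources used here. Since FPKM divides by the whole library, a rise of abundant genes lowers the others. Symbols and positions came from GENCODE release 44, which matched 56550 identifiers.

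Samples were grouped by title. A pseudocount of 1 was added to FPKM before log2 ratios were taken, which understates changes of low genes. Depth was estimated from the steps of low values in genes with 1 transcript of at least 500 bases. In each library 79.4% to 81.9% of these values came within 0.03 of a whole fragment, against 6% without steps, with a length offset of 202 to 203 bases. Fragments used the canonical transcript. Simulated data, drawn at the estimated depth with counting error alone, were used to check that known changes are called past 2-fold in the right direction. The planted changes were well larger than 2-fold, so calls near that threshold were not checked. The depth estimate and the counting intervals were not checked in this way. Named genes were the members, the largest shared rise and fall of each list, any list gene past 2-fold (there were none), the 5 genes nearest to WDR1 in pattern, its neighbours within 500 kb, and pseudogene copies over an FPKM of 1. CORO1A and CAPG were added after their values were seen, and EGR3 and LIMK1, SSH1 and SSH2 likewise. The members and lists were chosen with earlier results of these data known. Alternatives were other pseudocounts, filters and scalings. Scripts used Python 3.11.15, pandas 2.3.3 and scipy 1.17.1.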

Additional observations from a re-analysis of the deposited data

Results flagged for a closer look

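Several values had opposite directions in the 2 lines. With 1 library per group these differences, given as LIM1215 minus HT29 on the log2 scale, were not tested. LIMK2 differed by 0.63 (−0.15 in HT29 and 0.48 in LIM1215) and PFN1 by −0.32 (0.28 and −0.04). CORO1A differed by 1.41 (−0.81 and 0.61). SLC2A9, next to WDR1, differed by −1.20 (0.44 and −0.77), on an estimated 36.5 to 94.0 fragments a library. Among pseudogene copies, PFN1P6 differed by 1.99 (−1.43 and 0.56), DSTNP1 by 1.19 (−0.46 and 0.73) and CFL1P5 by 1.08 (−0.58 and 0.50), and the estimated fragments of these 3 reached at most 24.0 in any library. The median of the monomer-binding list differed by −0.22 (0.19 and −0.03), and that of the coronin list by 0.33 (−0.32 and 0.01) over 4 genes. The LIM1215 median of the coronin list was −0.00279 with upper quartile scaling and −0.01 after centring, so its direction changed, and it was 0.12 without a filter and 0.41 with a mean FPKM of at least 5.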

How the results depend on the processing

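WDR1 stayed past 2-fold in both lines under each of the 5 alternatives of pseudocount and scaling. In HT29 it moved beyond its counting interval under a common FPKM sum for all libraries, to 1.43. One member passed the threshold in each line under every alternative, 1.5-fold included. The other 9 genes stayed between −0.48 and 0.28 in HT29 and between −0.26 and 0.49 in LIM1215. Of 100 member values under alternatives, 12 left their counting interval and 6 changed sign, all 6 near 0: CORO1B in HT29 under 3 scalings (−0.07, −0.03 and −0.03) and in LIM1215 after centring (−0.000339), and SSH3 (−0.01) and CAP1 (−0.02) in HT29 with a common sum. Between the controls, 1 member was past 2-fold in place of 2 with a pseudocount of 5, a common sum, upper quartile scaling or centring. A common sum moved the median of all genes between the controls from 0.05 to −0.11. The CFL1 level alone in place of the sum put WDR1 at 11.1% and 27.4% in HT29 and at 11.5% and 27.0% in LIM1215. The genes past 2-fold numbered 274 higher and 288 lower in HT29 and 249 and 263 in LIM1215. With pseudocounts of 0.1 and 5 these were 570 and 87 higher and 558 and 94 lower in HT29, and 476 and 68 higher and 508 and 88 lower in LIM1215. With a mean FPKM of at least 5, HT29 had 128 higher and 144 lower, and LIM1215 had 89 and 113. Without a filter, HT29 had 396 and 406 and LIM1215 had 395 and 375. A common sum gave 264 and 389 in HT29. The cause of these moves was not tested. No paired analysis was possible because each group has 1 library. Leaving out a library leaves no comparison within its line.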
